A study of Mus musculus with 4 samples.

Results

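The cells described here are the 102 lymph node T cells to which the authors' annotation gives the name gd T cells (gamma delta T cells), out of 5825 annotated cells in all. Of these, 37 came from the RGX-104 library, where 1995 T cells were annotated, and 65 from the control library, where 2099 T cells were annotated. They were chosen by that name alone and then divided by whether the T cell receptor (TCR) library held a productive alpha chain (TRA) and a productive beta chain (TRB) for the same barcode. The name was given by the authors from the transcriptomes, so differences between these cells and other T cells are a description of the annotation and not a test.

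The study sorted T cells and antigen-presenting cells (APCs) from tumor-draining lymph nodes of wildtype mice, 8 days after the injection of tumor cells, and read them by 10x 5' single-cell RNA and TCR sequencing. From day 3 one group of mice ate chow holding RGX-104, which activates the liver X receptors (LXR), and the control mice ate control chow. Each chow had 1 RNA and 1 TCR library, the number of mice behind a library is not given in the sources used here, and no value below has a replicate. Brackets hold exact 95% counting intervals (Poisson for levels, conditional binomial for ratios, Clopper-Pearson for shares), which cover counting error only and not the spread between mice.

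Gamma delta T cells carry a receptor of a gamma and a delta chain in place of the alpha and beta chains of other T cells. In mice, many leave the thymus with their response already set, either to interleukin 17 or to interferon gamma, which the factor Tbx21 drives. Cells making interleukin 17 settle in skin and other barrier tissues and travel to the draining lymph nodes, where they are a fast source of the cytokine.

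The receptor chains came first, because productive alpha chains of 2 recurrent kinds were found among the cells with this name. All the alpha chains with V segment TRAV11 and J segment TRAJ18 had a CDR3, the stretch across the V to J junction, of the same amino acids, written in the 4 nucleotide versions below. The capital marks the only base that differs between them, at position 12 of 45 counted from the 5' end.
TRAV11-TRAJ18, version 1: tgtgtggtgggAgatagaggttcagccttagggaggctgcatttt
TRAV11-TRAJ18, version 2: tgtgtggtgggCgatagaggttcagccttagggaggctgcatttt
TRAV11-TRAJ18, version 3: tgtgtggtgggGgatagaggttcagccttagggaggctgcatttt
TRAV11-TRAJ18, version 4: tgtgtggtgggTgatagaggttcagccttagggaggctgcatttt
TRAV1-TRAJ33: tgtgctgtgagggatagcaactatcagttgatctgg

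Version 1 stood in 3 RGX-104 and 2 control cells, version 2 in 1 and 1, version 3 in 2 and 1, and version 4 in 0 and 2. The TRAV1-TRAJ33 chain is shown beside them because it came back with identical nucleotides in 3 control cells. It had 1 to 2 UMIs (counted molecules) in those cells, fewer than the 3 asked for in an alternative below. The TRAV11-TRAJ18 chains had 2 to 7. Outside the cells named gd, the TRAV1-TRAJ33 sequence stood in 2 barcodes and versions 1 to 4 in 1, 5, 5 and 0. As background, TRAV11 joined to TRAJ18 is the invariant alpha chain of mouse natural killer T cells that recognise lipids on CD1d, and TRAV1 joined to TRAJ33 that of mucosal-associated invariant T cells that recognise MR1. The TRAV11-TRAJ18 chain was carried by 6 of 10 RGX-104 cells named gd that had both chains (60.0%, 26.2 to 87.8) and by 6 of 16 such control cells (37.5%, 15.2 to 64.6). Among other annotated T cells with both chains it was carried by 2 of 1062 in the RGX-104 library (0.188%) and 3 of 1358 in the control library (0.221%). The TRAV1-TRAJ33 chain stood in 0 of 10 and 3 of 16 paired cells named gd, and in 1 of 1062 and 0 of 1358 other paired T cells. Both segments lie on chromosome 14, with Trav11 from 53519303 to 53519859 and Traj18 from 54200777 to 54200842 in RefSeq's annotation of GRCm38.p6.

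The beta chains beside these alpha chains were narrow in their V segment. A beta chain of the TRBV13 family accompanied 11 of the 12 TRAV11-TRAJ18 chains and 3 of the 3 TRAV1-TRAJ33 chains, whereas 778 of 3332 other annotated T cells with a beta chain had one of that family. Among the cells named gd without a recurrent alpha chain, 14 of 39 with a beta chain used the TRBV13 family. Other beta chains came back with identical nucleotides in a few cells of 1 library, shown because they were found in no barcode outside these cells.
TRBV10-TRBJ2-4, 3 control cells: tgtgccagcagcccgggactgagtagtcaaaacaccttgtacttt
TRBV3-TRBJ1-4, 2 RGX-104 cells: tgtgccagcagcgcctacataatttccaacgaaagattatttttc
TRBV12-1-TRBJ2-1, 2 RGX-104 cells: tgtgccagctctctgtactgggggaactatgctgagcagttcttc

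The shares of the receptor classes overlapped in their intervals between chows. A productive TRA and TRB pair was found in 10 of 37 RGX-104 cells named gd (27.0%, 13.8 to 44.1) and in 16 of 65 control cells (24.6%, 14.8 to 36.9), a ratio of 1.10 (0.445 to 2.57). A TRB chain without a TRA chain was found in 11 RGX-104 and 17 control cells, and neither chain in 16 and 32. In no cell was a TRA chain found alone. Other annotated T cells had a pair more often, in 54.2% of RGX-104 and 66.8% of control cells, and no chain in 16.1% and 11.5%. Where each chain had to have at least 3 UMIs (unique molecular identifiers, the counted molecules), 5 RGX-104 cells (13.5%) and 10 control cells (15.4%) named gd kept a pair. The TCR tables hold alpha and beta chains only, so gamma and delta chains were read from the RNA libraries.

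The marker of the lineage, Trdc, the constant region of the delta chain (ENSMUSG00000104876, chromosome 14 from 54142851 to 54146108, GRCm38.p6), was detected in a minority of the cells. Its UMIs were seen in 10 of 37 RGX-104 cells (27.0%, 13.8 to 44.1), with up to 5 UMIs a cell, and in 27 of 65 control cells (41.5%, 29.4 to 54.4), with up to 10. The summed level was 134 CPM (UMIs scaled to a total of 1000000 for the group; 88.0 to 194) in the RGX-104 cells and 220 CPM (175 to 273) in the control cells. Depth was close, with median UMIs per cell of 5545 in the RGX-104 and 5650 in the control cells, and after thinning each cell to 2000 UMIs the shares were 19.4% of 36 and 32.3% of 62. In APCs, which should lack the transcript, 1 of 949 RGX-104 and 0 of 782 control cells had a UMI, at median depths of 9043 and 8052 UMIs.

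Trdc followed the receptor class. Among RGX-104 cells named gd, it was seen in 1 of 10 with a TRA and TRB pair, 2 of 11 with TRB alone and 7 of 16 with no chain. Among control cells it was seen in 0 of 16 with a pair, 2 of 17 with TRB alone and 25 of 32 with no chain (78.1%, 60.0 to 90.7). None of the 12 cells with the TRAV11-TRAJ18 chain had a Trdc UMI. The name therefore covers cells with alpha and beta chains and cells with delta transcripts, and the whole group is called gd-named cells from here on.

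More of the Trdc in the annotated T cells lay outside the gd-named cells than within them. The cells that the authors named CD8_03 held 85 UMIs in 25 of 182 RGX-104 cells (13.7%, 9.09 to 19.6) and 136 UMIs in 33 of 176 control cells (18.8%, 13.3 to 25.3), together 53.9% of the 410 Trdc UMIs of annotated T cells. Of the Trdc-positive CD8_03 cells, 19 of 25 RGX-104 and 26 of 33 control cells had no TCR chain, against 19 of 157 and 20 of 143 of the CD8_03 cells without Trdc. Across the remaining T cells 25 of 1776 RGX-104 (1.41%) and 24 of 1858 control cells (1.29%) had a UMI. Among the T cell names, only gd T cells and CD8_03 had a Trdc share above 10% in either library.

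**Figure D1:**
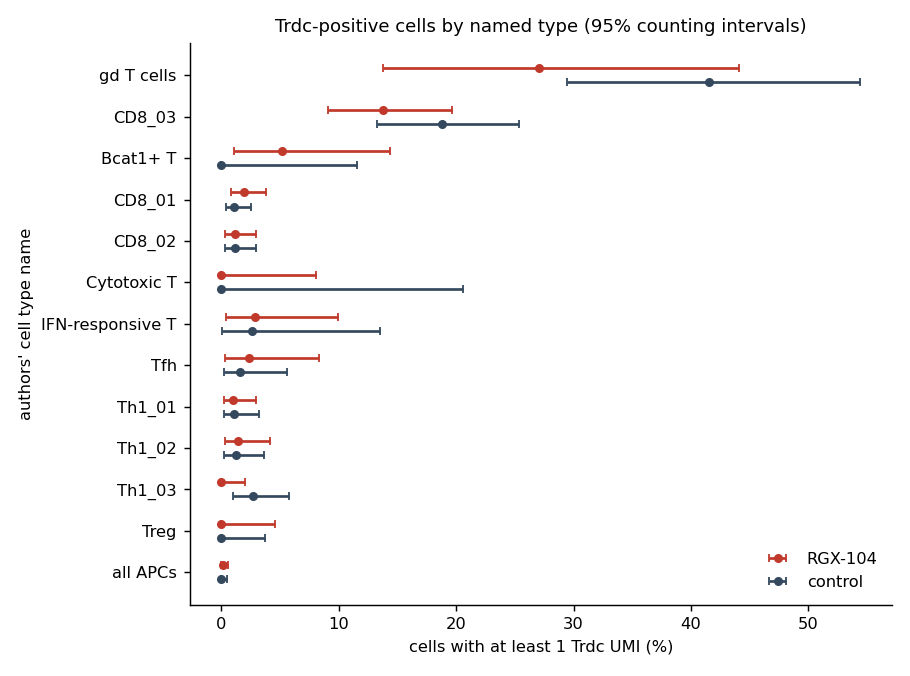
Share of cells with at least 1 Trdc UMI (x axis, percent) for each cell type name of the authors (y axis), RGX-104 above control; points are the share and bars the 95% Clopper-Pearson interval. The gd-named cells stand at 27.0% and 41.5%, CD8_03 at 13.7% and 18.8%, and APCs at 1 of 949 and 0 of 782 cells.

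Gamma constant regions were found in gd-named cells of every receptor class. Tcrg-C1 (chromosome 13 from 19214103 to 19216618, GRCm38.p6) had UMIs in 23 of 37 RGX-104 cells at 208 CPM and in 39 of 65 control cells at 375 CPM, against 18 of 1958 and 26 of 2034 other T cells. It was seen in 9 of 10 RGX-104 and 8 of 16 control gd-named cells with a TRA and TRB pair. The gamma constant genes are near-identical copies, so the division of reads among Tcrg-C1, Tcrg-C2 and Tcrg-C4 is uncertain. Trac, the alpha constant region, had UMIs in 21 of 37 RGX-104 and 32 of 65 control gd-named cells, and Trbc2, a beta constant region, in 28 and 50. In cells with a Trdc UMI, Trac was seen in 2 of 10 RGX-104 and 5 of 27 control cells. The remaining receptor complex was present, with Cd3e in 36 of 37 and 63 of 65 cells, while the coreceptors were nearly silent: Cd4 and Cd8a each had UMIs in 0 of 37 RGX-104 and 2 of 65 control cells.

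The variable segments of 1 receptor, picked after the values were seen, differed between the 2 libraries. Tcrg-V6 and Trdv4 encode the invariant receptor of a wave of mouse gamma delta T cells that forms before birth and makes interleukin 17. UMIs of both segments stood together in 0 of 37 RGX-104 cells (by a limit of 3 counts, 0 of 37 allows a share of cells with such UMIs of up to 8.11%) and in 12 of 65 control cells (18.5%, 9.92 to 30.03), a ratio whose interval ran from 0 to 0.632. In the 12 control cells Tcrg-V6 had 1 to 12 UMIs a cell, 66 in all. Trdv4 had 1 UMI in 1 RGX-104 cell and 132 UMIs in 13 control cells, from 1 to 28 a cell. All of these cells lacked a TRA and TRB pair, and after thinning to 2000 UMIs Tcrg-V6 was still seen in 0 of 36 and 11 of 62 cells. These segments were singled out after their values were seen, and the interval takes no account of that choice. It therefore cannot place the difference beyond counting error.

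Of the other segments, Tcrg-V4, Trdv5, Trdv2-2 and Trgv2 were seen in both libraries. Tcrg-V4, a gamma segment of other interleukin 17-making gamma delta cells, was seen in 16 of 37 RGX-104 (43.2%) and 21 of 65 control cells (32.3%), and 6 and 9 of them had a TRA and TRB pair. Trdv5 was seen in 4 of 37 (10.8%, 3.03 to 25.4) and 12 of 65 cells (18.5%, 9.92 to 30.03), and Trdv2-2 in 6 and 5. At least 2 Trdv2-2 UMIs were seen in 4 RGX-104 cells and 1 control cell. Control cells with 28, 24 and 5 Trdv4 UMIs had 1 Trdv2-2 UMI each, so the control counts of these segments overlap. Trgv2 was seen in 6 RGX-104 (16.2%, 6.19 to 32.0) and 25 control cells (38.5%, 26.7 to 51.4). Tcrg-V1 stood in 0 and 3 cells and Tcrg-V5 in 0 and 4.

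A pair of scavenger receptors known from interleukin 17-making gamma delta T cells divided along the same segments. Cd163l1 (chromosome 7 from 140197218 to 140231145, GRCm38.p6) had UMIs in 2 RGX-104 and 19 control cells, and was seen in 13 of the 13 control cells with Trdv4. Its chromosomal neighbour 5830411N06Rik (chromosome 7 from 140247279 to 140300734, same build) had UMIs in 14 of 37 and 27 of 65 cells. It was seen in 4 of 4 RGX-104 and 12 of 12 control cells with Trdv5, in 5 of 6 and 2 of 5 cells with Trdv2-2, and in 0 of 1 and 0 of 13 cells with Trdv4. Some of the control cells with Trdv2-2 were also cells with Trdv4. Both receptors together stood in 2 RGX-104 and 3 control cells.

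**Figure D2:**
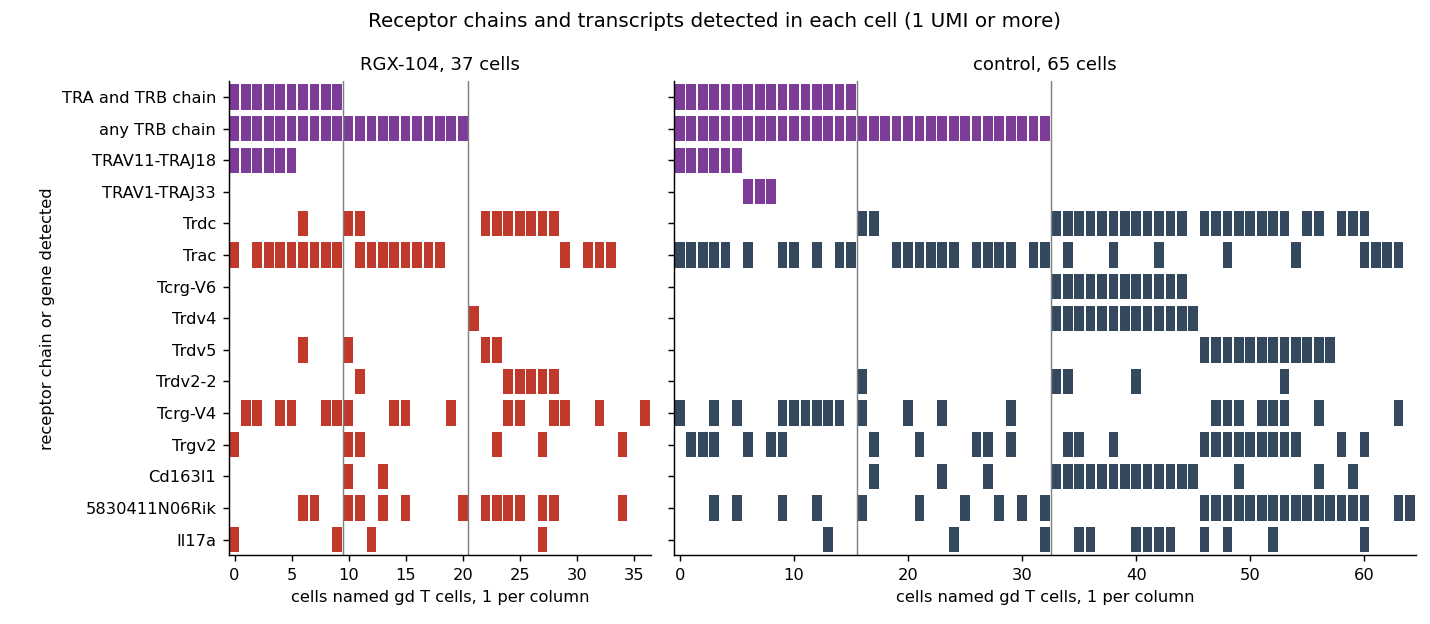
Each column is 1 gd-named cell, RGX-104 (37 cells) on the left and control (65 cells) on the right; rows are TCR chains from the TCR library (purple) and transcripts (red or dark blue), filled where at least 1 chain or UMI was found. Grey lines part cells with TRA and TRB, with TRB only, and with no chain. The block of Tcrg-V6, Trdv4 and Cd163l1 stands in 12 control cells with no chain and in 0 RGX-104 cells.

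What the gd-named cells shared, across receptor classes, was the transcript program of interleukin 17-making cells. Summed over the 26 genes of that list, their level was 7021 CPM in RGX-104 and 8786 CPM in control gd-named cells, against 301 and 303 CPM in other T cells. Cells with a TRA and TRB pair stood at 6044 and 7772 CPM, cells with TRB alone at 7330 and 7019 CPM, and cells with no chain at 7596 and 10406 CPM. The lowest gd-named cell had 32.4 list UMIs per 10000 in the RGX-104 library and 38.9 in the control library, and the highest other T cell had 43.3 and 41.6, so the groups overlapped. The medians were 66.6 and 82.9 in gd-named cells, against 2.12 and 2.15 in other T cells.

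**Figure D3:**
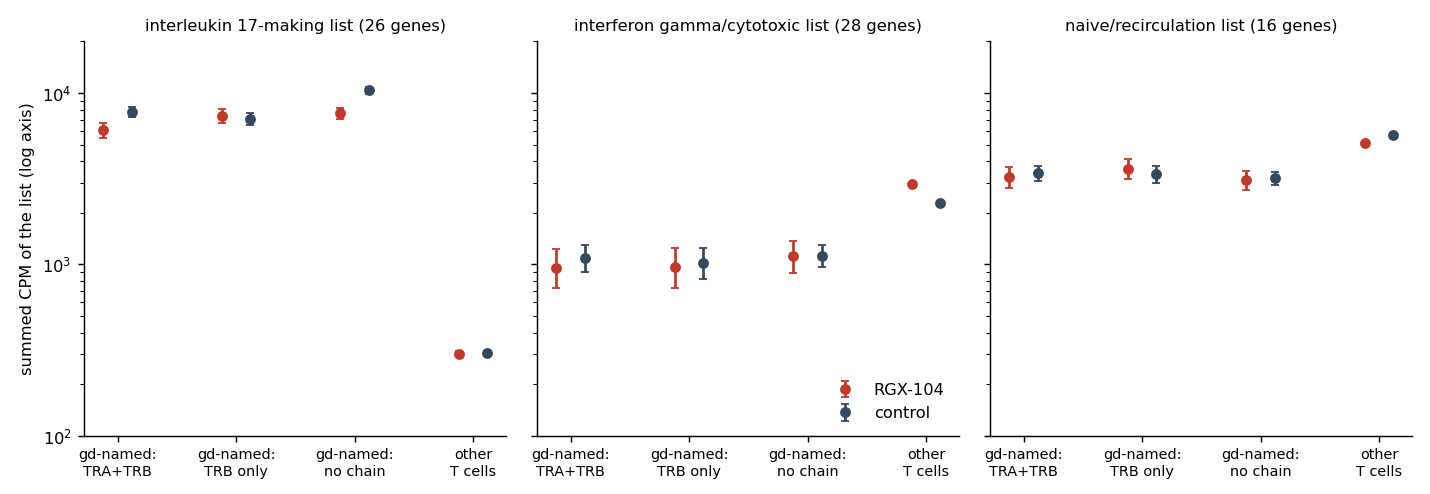
Summed CPM (log axis) of 3 gene lists in gd-named cells by receptor class and in other annotated T cells, RGX-104 left of control in each pair; bars are 95% Poisson intervals. The interleukin 17 list lies between 6044 and 10406 CPM in every gd-named class and near 300 CPM in other T cells (301 and 303), while the sums of the other lists are lower in gd-named cells.

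By role, Maf, a factor of interleukin 17-making cells, was seen in 27 of 37 RGX-104 and 58 of 65 control gd-named cells, and Blk, a kinase of interleukin 17-making gamma delta cells, in 25 and 47. Sox13, a factor of that lineage, separated the classes: it was seen in 0 of 10 RGX-104 and 1 of 16 control cells with a TRA and TRB pair, and in 6 of 16 and 18 of 32 cells with no chain. Zbtb16, the PLZF factor of innate-like T cells, was seen in 18 of 37 and 24 of 65 gd-named cells and in 8 of 1958 and 4 of 2034 other T cells. In a 10-gene list of innate-like alpha beta T cells, 7 had at least 30 UMIs over gd-named and other T cells in both libraries. Of these, only Zbtb16 was at least 2-fold higher in gd-named cells in both, while Slamf6 and Sh2d1a were at least 2-fold lower. Zbtb16 reached that minimum only with the UMIs of gd-named cells. The list summed to 178 CPM in RGX-104 and 196 CPM in control gd-named cells, against 249 and 256 CPM in other T cells. Among receptors, the chemokine receptor Cxcr6 was seen in 36 and 59 cells and Ccr6 in 27 and 49, and the interleukin 23 receptor Il23r in 16 and 31, against 0 of 1958 and 0 of 2034 other T cells. Il7r, the receptor of the survival cytokine interleukin 7, was seen in 37 of 37 and 64 of 65.

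Transcripts of the cytokine itself were seen in few cells. Il17a had 124 UMIs in 4 RGX-104 cells, with 85, 20, 18 and 1 UMIs, and 228 UMIs in 13 control cells, with 1 to 75 UMIs. The summed level was 614 CPM in RGX-104 and 611 CPM in control gd-named cells, but 1 cell held 68.5% of the RGX-104 UMIs and 1 cell 32.9% of the control UMIs. Other T cells had 0 UMIs in the RGX-104 library and 6, in 1 cell, in the control library. Of the Il17a-positive cells, 2 of 4 RGX-104 and 1 of 13 control cells had a TRA and TRB pair. Il17f, the related cytokine, was seen in 4 and 5 cells.

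The defining genes of the interferon gamma program were not detected. Tbx21, Ifng and Eomes had 0 UMIs in 37 RGX-104 and 65 control cells. The 28 genes of that list summed to 1019 and 1089 CPM in gd-named cells, against 2944 and 2272 CPM in other T cells, and Cd7 alone gave 430 and 464 CPM of the gd-named sums. The sums and the per-cell medians differed in direction: per cell the list had medians of 9.02 and 10.9 UMIs per 10000 in gd-named cells and 8.68 and 8.61 in other T cells, whose highest cells reached 1112 and 354. The Trdc-positive CD8_03 cells had the opposite balance, with 10993 and 10967 CPM of the interferon gamma and cytotoxic list and 251 and 317 CPM of the interleukin 17 list. The CD8_03 cells without Trdc stood close to them, at 9615 and 9749 CPM and at 251 and 246 CPM. The 16 genes of naive and recirculating cells summed to 3281 and 3291 CPM in gd-named cells, against 5092 and 5706 CPM in other T cells.

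Across genes, 9719 had at least 30 UMIs over gd-named and other T cells in both libraries. Of these, 617 (6.35%) were at least 2-fold higher in gd-named cells in both libraries and 325 (3.34%) at least 2-fold lower. The annotation rests on the same transcriptomes, so these counts carry no more than the size of the difference. All 17 members of the interleukin 17 list that were measured were among the higher genes. The 13 of them with 30 UMIs in other T cells alone, which did not need the gd-named cells to be counted, were higher as well. Of the 14 genes of the CD3 complex and coreceptors 8 were lower and 0 higher, and of the 3 alpha and beta constant genes none was called either way. Of 27 measured genes of the interferon gamma and cytotoxic list 9 were lower and 2 higher (Klrk1 and Cd7), and of 16 naive genes 11 were lower and 2 higher (Il7r and Itgb7). Of 22 proliferation genes 9 were lower and 0 higher.

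The 12 genes ranked highest in gd-named cells were Il17a, Pxdc1, Sdc1, Tmem176a, 5830411N06Rik, Mmp25, Blk, Serpinb1a, Tmem176b, Zbtb16, Ccr6 and Ly6g5b. Pxdc1 stood at 1138 CPM in RGX-104 and 770 CPM in control gd-named cells, against 0.900 and 1.26 CPM in other T cells, and was seen in 31 of 37 and 46 of 65 cells. Sdc1, the proteoglycan syndecan-1, had 42 and 46 UMIs in gd-named cells, against 4 and 3 in all other T cells. Tmem176a and Tmem176b, a pair of related membrane proteins, were seen in 32 and 34 RGX-104 and in 61 and 61 control cells. Mmp25, a membrane-bound protease, had 27 and 74 UMIs in gd-named cells, against 8 and 4.

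At the other end stood Ly6c2, Ccr7, Cd8b1, Cd8a, Actn1, Ccl5 and Igfbp4. Ly6c2, a surface antigen of memory CD8 T cells, had 0 UMIs in gd-named cells of both libraries, at least 35.0-fold lower in the RGX-104 and 55.8-fold lower in the control library against a floor of 3 counts per library. Ccr7, which keeps T cells in the node, stood at 9.90 and 21.5 CPM in gd-named cells, against 711 and 904 CPM in other T cells. Ccl5, a chemokine of effector T cells, stood at 34.6 and 26.8 CPM, against 947 and 515 CPM.

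Immediate early genes, which also respond to tissue digestion, were higher in gd-named cells too. Of 17 measured genes of that list 13 were at least 2-fold higher in both libraries and 0 lower, and the list summed to 18293 and 16270 CPM, against 5051 and 6082 CPM in other T cells. Fosb, a subunit of the AP-1 factor, was seen in 33 of 37 and 52 of 65 cells at 1193 and 963 CPM, against 53.4 and 69.4 CPM. The nodes were digested with enzymes before sorting, and the part of digestion in these levels was not tested. Among activation genes, 8 of 20 were higher and 2 lower (Tnfrsf4 and Ctla4). The 8 were Cd44, Icos, Il2ra, Nr4a1, Nr4a3, Egr1, Cd40lg and Tnf, of which Nr4a1 and Egr1 were also counted in the immediate early list. Over all measured genes 6.35% were higher and 3.34% lower. Icos, a costimulatory receptor, stood at 886 and 697 CPM, against 183 and 192 CPM, and Il2ra, the high-affinity interleukin 2 receptor chain, at 262 and 217 CPM, against 32.9 and 37.1 CPM.

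Markers of other cells were in part present. Of 19 myeloid markers 13 were seen in RGX-104 and 10 in control gd-named cells, with sums of 747 and 550 CPM, against 449 and 320 CPM in other T cells. Of the 9 measured against other T cells, 3 were at least 2-fold higher in gd-named cells in both libraries (Lyz2, Cst3 and Apoe) and 0 lower. Cst3, a protease inhibitor, was seen in 28 of 37 and 49 of 65 cells, and Lyz2, a lysozyme of phagocytes, in 8 and 8. Itgam, Fcgr3, Flt3, C1qa, S100a8 and S100a9 were at 0 in both libraries. Their part in the differences from other T cells was not tested. B cell markers summed to 208 and 180 CPM, against 308 and 331 CPM in other T cells. Of 8 measured, 1 was at least 2-fold higher in both libraries (Cd79b, a chain of the B cell receptor complex) and 1 lower (Ighm). The markers of natural killer and innate lymphoid cells summed to 213 and 239 CPM, against 183 and 158 CPM in other T cells. Of 14 members, 4 were seen in RGX-104 gd-named cells (Areg, Gata3, Tyrobp and Fcer1g) and 5 in control cells (these and Klrb1c). Ncr1, Klra8, Eomes and Kit were among those at 0. Of 8 measured, 0 were at least 2-fold higher in both libraries and 1 lower (Eomes). Foxp3, the factor of regulatory T cells, was at 0.

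The gd-named cells made up a smaller share of T cells in the RGX-104 library. They were 1.85% of annotated RGX-104 T cells (1.31 to 2.55) and 3.10% of annotated control T cells (2.40 to 3.93), a ratio of 0.599 (0.389 to 0.910). Sorting and annotation set this denominator, and of all annotated cells they were 1.26% and 2.26%. When only gd-named cells with a Trdc UMI were counted, the shares were 0.501% and 1.29%.

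For the comparison of chows within gd-named cells, 2748 genes had at least 30 UMIs over both libraries. Of these, 47 (1.71%) had a level with RGX-104 at least 2-fold higher and 125 (4.55%) at least 2-fold lower, and the median gene had a log2 ratio of -0.09. The 8 ranked highest were Scd2, Abca1, Lars2, Insig1, Fasn, Srebf1, Rrad and Fdps, of which all but Lars2 and Rrad belong to the LXR or cholesterol lists. LXR activation is known to raise cholesterol export and fatty acid synthesis.

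Scd2, a fatty acid desaturase, had 33 UMIs in 17 of 37 RGX-104 cells (163 CPM) and 3 UMIs in 3 of 65 control cells (8.05 CPM), a ratio of 20.3 (6.37 to 103). Abca1, the cholesterol exporter, had 30 UMIs in 19 cells (148 CPM) with RGX-104 and 7 UMIs in 5 cells (18.8 CPM) in control, a ratio of 7.91 (3.40 to 21.3). Srebf1, a factor that switches on lipid synthesis genes, had a ratio of 5.37 (2.64 to 11.8), and the synthase Fasn one of 6.33 (2.64 to 17.4). The exporter Abcg1 had 16 and 8 UMIs, too few to be counted as measured, and a ratio of 3.69 (1.49 to 9.96). Smpdl3a, also an LXR target, had 42 and 80 UMIs and a ratio of 0.969 (0.650 to 1.42), and Lpcat3 one of 1.21 (0.664 to 2.17).

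Of the 24 LXR targets 9 were measured, 5 at least 2-fold higher (Scd2, Abca1, Srebf1, Fasn and Arl4c) and 0 lower. Their log2 ratios had a median of 1.17. Only 2 of the 9 reached 30 UMIs in control cells alone, so a member often passed through its RGX-104 level, and the sum over all 24 members does not depend on that minimum. It was 1480 CPM in RGX-104 and 703 CPM in control gd-named cells, a ratio of 2.11 (1.78 to 2.50). Per cell, the list held 1.62 to 39.9 UMIs per 10000, with a median of 15.5, in RGX-104 cells, and 0 to 18.4, with a median of 6.30, in control cells, so that the groups overlapped and 33 of 37 RGX-104 cells lay above the control median. The cell at 39.9 also held 32 of the 151 myeloid-list UMIs of RGX-104 gd-named cells. It was the only gd-named cell among the top 6% of Scrublet doublet scores. The control cell at 18.4 held 35 of the 205 myeloid-list UMIs of control gd-named cells. Cells with a TRA and TRB pair summed to 1538 CPM with RGX-104 and 743 CPM in control (2.07-fold, 1.54 to 2.80), and cells without one to 1452 and 685 CPM (2.12-fold, 1.72 to 2.61). In cells with a Trdc UMI the ratio was 1.77 (1.25 to 2.48). Side by side, other T cells had 1442 and 615 CPM, a ratio of 2.35 (2.28 to 2.41).

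Cholesterol synthesis genes were higher as well. Insig1, a sterol sensor, had 27 UMIs in RGX-104 and 7 in control gd-named cells, a ratio of 7.12 (3.02 to 19.4). Fdps, farnesyl diphosphate synthase, was 4.36-fold higher (2.08 to 9.78). Idi1, an isoprenoid isomerase, had 20 UMIs with RGX-104 and 3 in control. Of 25 members 5 were measured, and 4 were at least 2-fold higher (Fdps, Insig1 and Srebf2 among them) and 0 lower. In cells with a Trdc UMI the log2 ratio of Srebf2, a factor that drives cholesterol synthesis genes, was -0.33. The sum over all members was 1306 and 405 CPM, a ratio of 3.23 (2.63 to 3.97), against 961 and 348 CPM and a ratio of 2.76 (2.66 to 2.87) in other T cells. The most cholesterol-list UMIs per 10000 in any control cell was 10.9, and 22 of 37 RGX-104 cells lay above it. Cells with a TRA and TRB pair had a ratio of 4.56 (3.15 to 6.71) and cells without one a ratio of 2.71 (2.11 to 3.49), and in cells with a Trdc UMI the ratio was 2.03 (1.39 to 2.96). The differences between these ratios were not tested.

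**Figure D4:**
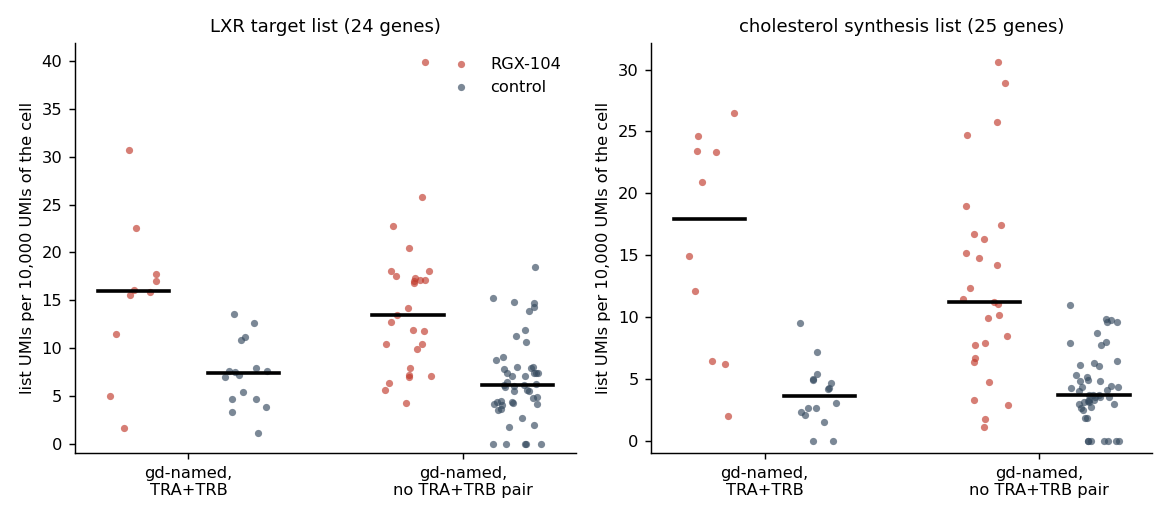
UMIs of the LXR target list (left) and the cholesterol synthesis list (right) per 10000 UMIs of each gd-named cell (y axis), split by a productive TRA and TRB pair, RGX-104 left of control; each point is 1 cell and the bar is the median. In both receptor classes the RGX-104 median lies above the control median, and 22 of 37 RGX-104 cells lie above the highest control cell for the cholesterol list.

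These cells share a library and are not replicates of a chow. The myeloid list, whose cells also respond to LXR agonists, was higher too, with 747 CPM in RGX-104 and 550 CPM in control gd-named cells (1.36-fold, 1.09 to 1.69), and its part in the LXR values was not tested. Apoe, a lipoprotein that macrophages make in quantity, had 17 UMIs in 4 RGX-104 cells and 11 UMIs in 1 control cell. Lars2, a mitochondrial tRNA synthetase, was 3.45-fold higher (3.20 to 3.71), with 37.4% of its RGX-104 and 37.7% of its control UMIs in 1 cell each, and in cells with a Trdc UMI its log2 ratio was -1.02. Rrad, a small GTPase, was 3.53-fold higher (2.54 to 4.95), and its log2 ratio among Trdc-positive cells was -0.11.

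**Figure D5:**
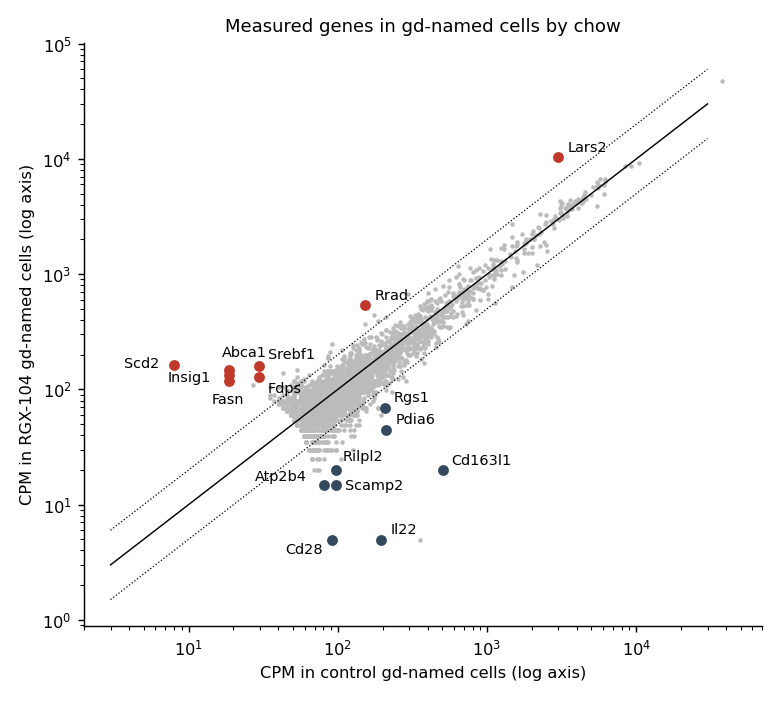
CPM of measured genes with UMIs in both libraries, RGX-104 gd-named cells (y axis, log) against control gd-named cells (x axis, log); the solid line is equality, dotted lines are 2-fold, and coloured points are the genes ranked highest (red) and lowest (dark blue). Scd2, Abca1, Insig1, Fasn, Srebf1 and Fdps lie above the upper 2-fold line, and Cd163l1 stands at 19.8 against 504 CPM.

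At the low end, the ranked genes were Cd163l1, Il22, Cd28, Pdia6, Scamp2, Rilpl2, Atp2b4 and Rgs1. Cd163l1 had 4 UMIs in 2 RGX-104 cells (19.8 CPM) and 188 UMIs in 19 control cells (504 CPM), a ratio of 0.0393 (0.0106 to 0.102). Cd28, a costimulatory receptor, had 1 UMI in 1 RGX-104 cell and 34 UMIs in 14 control cells, 7 of them with a TRA and TRB pair. Pdia6, a protein disulfide isomerase, had a ratio of 0.210 (0.0927 to 0.420), and Rgs1, a regulator of chemokine signalling, one of 0.335 (0.175 to 0.598). Il22, the epithelial cytokine, had 1 and 73 UMIs, with 86.3% of the control UMIs in 1 cell.

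Pooled over receptor classes, the summed interleukin 17 list was lower with RGX-104. All 26 members were measured, 4 were at least 2-fold lower (Cd163l1, Il22, Sox13 and Ltb4r1) and 0 higher. Their log2 ratios had a median of -0.39, and the sum had a ratio of 0.799 (0.750 to 0.851). Sox13 had 6 UMIs in 6 RGX-104 and 34 UMIs in 23 control cells, a ratio of 0.326 (0.112 to 0.785). Blk had 47 and 141 UMIs, a ratio of 0.615 (0.432 to 0.861). Il17a had a ratio of 1.003 (0.800 to 1.25) and Rora, a nuclear receptor of the same program, one of 1.30 (0.994 to 1.70). Without the 1 RGX-104 and 13 control cells with Tcrg-V6 or Trdv4 UMIs, a set chosen after seeing the data, the summed ratio was 0.882 (0.825 to 0.942). In cells with a TRA and TRB pair it was 0.778 (0.689 to 0.876), and in those with the TRAV11-TRAJ18 chain 0.884 (0.746 to 1.05). Cells with TRB alone went the other way, at 7330 CPM (6646 to 8066) in RGX-104 and 7019 CPM (6477 to 7593) in control.

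Of the other programs, the activation list stood at 5334 CPM (5020 to 5662) in RGX-104 and 4253 CPM (4047 to 4468) in control gd-named cells. The gamma and delta constant genes stood at 445 CPM (358 to 547) and 788 CPM (701 to 884). Without cells with Tcrg-V6 or Trdv4 UMIs, they stood at 453 CPM (364 to 557) and 533 CPM (455 to 621), intervals that overlap. Cells with TRB alone stood at 384 CPM (241 to 581) in RGX-104 and 340 CPM (229 to 485) in control. The interferon gamma and cytotoxic list had a summed ratio of 0.936 (0.788 to 1.11), and the naive list one of 0.997 (0.906 to 1.10). Interferon response genes stood at 1395 CPM in RGX-104 and 1196 CPM in control gd-named cells, a ratio of 1.17 (1.001 to 1.36). The ratio was 0.977 (0.754 to 1.26) in cells with a TRA and TRB pair and 1.29 (1.06 to 1.56) in cells without one. It was 1.08 (0.926 to 1.27) without cells with Tcrg-V6 or Trdv4 UMIs, and 1.05 (1.03 to 1.07) in other T cells. Of the 6 measured genes 2 were at least 2-fold higher and 0 lower, against 1.71% and 4.55% of all measured genes. The immediate early list had a ratio of 1.12 (1.08 to 1.17) in gd-named cells, while in other T cells it was 0.830 (0.821 to 0.840).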

How the data were processed

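The authors' deposited values are raw UMI counts of 32285 genes in each barcode, from Cell Ranger (version 5.0.0 in the matrix header). Per the submitters' processing notes the build was mm10 and cells were handled in Seurat 5.0.3. For the TCR libraries the deposited tables list contigs with their UMI counts, all productive and all TRA or TRB. The authors' deposited annotation gives each cell its counts, a mitochondrial percent, a cell type name and unitless doublet and cell cycle scores (no score was used here). It has no barcodes, so each cell was joined by UMIs and genes (over genes seen in at least 3 barcodes) and mitochondrial percent. All 2944 RGX-104 and 2881 control cells matched 1 barcode, and the clonotype the authors gave equalled the barcode's contigs in 1664 of 1664 and 1834 of 1834 cells. The libraries held 8671 and 7346 barcodes and 38480769 and 31530931 UMIs. They shared 95 barcode sequences, 0 of them between gd-named cells.

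Counts were summed over cells and divided by their total (CPM). A gene was measured with at least 30 UMIs over the cells compared and called at 2-fold, in both libraries for gd-named against other T cells. With 1 library per chow there is no test. Named genes were the receptor constant genes, the V segments seen in at least 3 cells, measured list members, and the genes ranked by the interval bound nearest to 1 (12 highest and 8 lowest against other T cells, 8 and 8 between chows), without receptor segments, immunoglobulin, mitochondrial and ribosomal genes and unnamed models. Genes of CD8_03 cells, Apoe, Fosb and the members named at 0 were chosen after their values were seen. The cells, the 19 lists and the rule were chosen with earlier results of these data known.

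Gene positions come from RefSeq (GRCm38.p6). Tools were Python 3.11.15, scipy 1.17.1, scanpy 1.11.5 (Scrublet) and edgeR 4.0.16 in R 4.3.3 (TMM factors only). Scrublet's automatic threshold marked 1 barcode, so, as a choice made after seeing that, the top 6% by its score were left out as an alternative, which took 1 RGX-104 and 0 control gd-named cells. Intervals were checked on simulated counts. Alternatives changed the scaling, the minimum, the fold, the cells and the depth. Leaving out cells with Tcrg-V6 or Trdv4 UMIs, and keeping only cells with a TRA and TRB pair, were added after seeing the data. A few genes that the rule names are not reported here.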

Additional observations from a re-analysis of the deposited data

Results flagged for a closer look

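Tcrg-V6 and Trdv4 UMIs also stood together outside the annotated cells. In the RGX-104 library 2 of 5727 barcodes without an annotation had UMIs of both segments, against 0 of 4465 in the control library. Over all barcodes of a library the counts were 2 of 8671 in RGX-104 (0.0231%, 0.00279 to 0.0833) and 12 of 7346 in control (0.163%, 0.0844 to 0.285). Barcodes without an annotation had a median of 1161 UMIs in the RGX-104 and 1147 in the control library. The libraries have no replicates, so the difference was not tested.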

How the results depend on the processing

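No paired analysis was possible because each chow has 1 RNA library. Of 209 main values under the alternatives 172 moved within their interval or within 1.5 times and 37 moved further; of 714 single-gene values 75 moved and 3 reversed, all in cells with a Trdc UMI (10 RGX-104 and 27 control cells): Lars2 at -1.02, Rrad at -0.11 and Srebf2 at -0.33 (log2). The cause was not tested.

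Counts of genes depended on the minimum and the fold. Between chows, 47 genes were higher with 30 UMIs, 325 with 10, 7 with 100 and 561 with no minimum, and 125, 665, 8 and 1055 were lower. At 1.5-fold 201 were higher and 448 lower, without the top cell of each gene 28 were higher, in thinned cells 24 were higher and 46 lower, and in cells with a TRA and TRB pair 21 and 43. Against other T cells, 617 higher genes became 409 with 100 UMIs, 1140 at 1.5-fold and 400 without the top cell. The 325 lower ones became 531 with totals without receptor, immunoglobulin, mitochondrial and ribosomal genes, 531 without the top cell, 796 at 1.5-fold, 157 in Trdc-positive cells, 206 in thinned cells and 175 in cells with a pair. That scaling moved the median log2 ratio of all genes against other T cells to -0.19 in RGX-104 and -0.20 in control, TMM to -0.13 and -0.15, and median-of-ratios factors to -0.10 and -0.12, from 0.01 and 0.04.

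The interleukin 17 list had a median log2 ratio against other T cells of 4.05 in the RGX-104 library, which became 6.66 with 10 UMIs and 6.88 with no minimum. In the control library 7.47 became 4.73 with 100 UMIs, 5.89 in thinned cells, 6.53 without cells with Tcrg-V6 or Trdv4 UMIs and 5.02 in cells with a pair. The share named gd, 1.85% and 3.10%, became 0.501% and 1.29% for Trdc-positive cells and 1.26% and 2.26% of all annotated cells. The share with a pair became 10.0% and 0% in Trdc-positive cells, and 13.5% in RGX-104 with 3 UMIs a chain. Trdv4 in RGX-104 cells, 2.70%, became 0% with 2 UMIs and 0% in thinned cells. The low share of cells with Trdc limits what the receptor of a single cell can show, since a missing UMI is not a missing transcript.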

Other observations

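Of 32 measured cytokine and chemokine receptors 10 were at least 2-fold higher and 5 at least 2-fold lower in gd-named cells than in other T cells in both libraries. The lower ones include Ccr7 and Cxcr3, a receptor of interferon-induced chemokines. The members described next were picked after their values were seen. Ccr2, the receptor of monocyte chemokines, stood at 237 CPM in RGX-104 and 370 CPM in control gd-named cells, against 16.7 and 13.2 CPM in other T cells, and was seen in 22 of 37 and 46 of 65 gd-named cells. Ccr10, which binds a chemokine of the epidermis, stood at 69.3 and 105 CPM, against 3.06 and 4.96 CPM. Tnf, an inflammatory cytokine, was seen in 14 of 37 RGX-104 and 28 of 65 control gd-named cells, at 94.0 and 137 CPM, against 9.90 and 10.3 CPM. Ctla4, an inhibitory receptor, had 0 UMIs in RGX-104 gd-named cells and 10 UMIs in 6 control cells, against 1494 and 1728 UMIs in other T cells. Mki67, a marker of dividing cells, had 1 and 2 UMIs.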
